A study of Homo sapiens with 4 samples.

Results

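The expression profile of cells in which the FOXF1 gene itself was targeted (sgRNA-FOXF1) was compared directly with the profiles of cells in which its enhancer was targeted (sgRNA-AP1-69 and sgRNA-AP1-71). The comparison asks where disrupting a gene and disrupting an enhancer assigned to it differ. Genes were included at a mean of at least 2 RPKM (a read density corrected for transcript length and library size) over these 3 libraries, which left 7560 of 12033 genes. The difference of a gene is its log2 RPKM with sgRNA-FOXF1 minus the mean log2 RPKM of both enhancer guides, and 5797 genes had a difference of one sign against each guide. The cells were BJ-indRASG12V, human BJ fibroblasts immortalized by hTERT that carry an inducible oncogenic RAS. All libraries, the control included, came from cells given 4-OHT for 14 days to switch on RASG12V, and each culture was transduced with a CRISPR-Cas9 vector. Such cultures are mixed populations of edited cells rather than clones, and none was left without RAS induction. sgRNA-AP1-69 and sgRNA-AP1-71 cut at the AP-1 site of the enhancer Enh.AP1.OIS1, and the control carried a non-targeting sgRNA (NT) that the comparison itself does not use. Each guide has 1 library, so the only spread available is that between both enhancer guides, and it includes their different cuts as well as library noise. Read counts are not given, so the depth is unknown. RNA came from whole cultures, in which fewer cells of a kind and less RNA per cell cannot be told apart.

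FOXF1 is a forkhead transcription factor of mesenchymal cells, the lineage of fibroblasts, and it is known for its part in the development of the lung and gut. AP-1 is a dimer of FOS and JUN family proteins that acts downstream of RAS and binds at enhancers. In oncogene-induced senescence (OIS), cells that carry an activated oncogene such as RAS stop dividing for good. Senescent fibroblasts remodel their extracellular matrix and secrete inflammatory factors, the senescence-associated secretory phenotype (SASP). Cas9 cuts are repaired with small insertions or deletions, and mRNA that carries them is still counted as mRNA of its gene. A cut in a distant enhancer leaves the coding sequence intact. The exact cut site of sgRNA-FOXF1 is not used here.

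The enhancer site and 2 promoters are shown because they place the cut and the motifs searched below. The AP-1 site lies at chr16:86421275-86421281 of hg19 (GRCh37), in an interval of 982 bases that overlaps 0 GENCODE features and lies upstream of FOXF1, and is shown on the plus strand within chr16:86421235-86421321. The promoter of FENDRR (GRCh38.p14, chr16:86508811-86509110, minus strand, RefSeq) holds a forkhead core motif. The promoter of CPA4 (GRCh38.p14, chr7:130292911-130293210, plus strand, RefSeq) holds 2 AP-1 motifs. Capitals mark the motifs, and each promoter runs from 250 bases before to 50 bases after the start of its gene.
Enh.AP1.OIS1: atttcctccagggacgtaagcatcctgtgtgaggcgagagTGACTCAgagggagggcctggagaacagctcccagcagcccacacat
FENDRR: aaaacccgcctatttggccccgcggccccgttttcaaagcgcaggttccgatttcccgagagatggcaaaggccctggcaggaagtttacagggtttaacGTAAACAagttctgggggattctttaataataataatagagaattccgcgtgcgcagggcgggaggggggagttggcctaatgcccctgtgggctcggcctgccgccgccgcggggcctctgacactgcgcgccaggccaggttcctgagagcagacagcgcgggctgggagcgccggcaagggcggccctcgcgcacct
CPA4: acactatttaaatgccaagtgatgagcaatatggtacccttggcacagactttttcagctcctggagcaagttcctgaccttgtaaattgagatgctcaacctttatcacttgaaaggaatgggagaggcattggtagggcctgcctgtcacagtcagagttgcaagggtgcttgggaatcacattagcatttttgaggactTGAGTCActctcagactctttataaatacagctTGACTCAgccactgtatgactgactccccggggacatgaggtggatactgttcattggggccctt

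FOXF1 mRNA (ENSG00000103241, chr16:86544133-86549028 of hg19, plus strand) was at 25 RPKM with sgRNA-FOXF1 against 11.1 with sgRNA-AP1-69 and 7.8 with sgRNA-AP1-71. Wherever a pair of levels follows the word against below, sgRNA-AP1-69 comes first and sgRNA-AP1-71 second. The sgRNA-FOXF1 library was thus 2.69-fold above the mean of the enhancer guides (log2 difference 1.43, SD 0.36, n = 2 guides), close to the NT library at 29.6 RPKM. These reads do not tell edited from unedited transcripts, so the mRNA level is no measure of the FOXF1 protein. By western blot, the study reports an effective FOXF1 knockout with sgRNA-FOXF1 and reduced FOXF1 protein with the enhancer guides. In its staining assays, cells with any of these 3 guides showed less senescence and more proliferation under RAS induction than the control. FENDRR, a long non-coding RNA transcribed away from FOXF1 on the opposite strand (chr16:86508135-86542705), stood at 5.9 RPKM with sgRNA-FOXF1 against 1.8 with sgRNA-AP1-69 and 1.6 with sgRNA-AP1-71. Its difference was larger than that of FOXF1 (log2 difference 1.80, SD 0.12, n = 2 guides), at a low level where the 1.0 RPKM floor of the values is near. The forkhead relative FOXF2 had 9.7 RPKM against 8.9 and 6.4, a difference of 0.36 that came to 0.03 after correction for GC content (described below). Of the other genes of a list for the locus, C16orf74 had a difference of 0.44 (0.15 after GC correction). The replication factor gene GINS2 lay between the guides, at 6 RPKM against 5.5 and 7.8. EMC8, COX4I1 (a subunit of cytochrome c oxidase) and MAP1LC3B (the autophagy protein LC3B) had differences of -0.09, -0.14 and -0.26. Of the 7 locus genes compared, FOXF1 and FENDRR were therefore the ones past 1.5-fold. HRAS mRNA, which would include reads of an HRAS transgene, was at 707.6 RPKM with sgRNA-FOXF1 against 446.4 with sgRNA-AP1-69 and 427.4 with sgRNA-AP1-71, a difference of 0.70 (SD 0.04, n = 2 guides) that came to 0.34 after GC correction. HRAS mRNA was therefore not level between the libraries compared, and its part in the results that follow was not tested. The NT library had 829.4 RPKM of HRAS, above these 3 libraries and nearest to sgRNA-FOXF1.

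By the size rule, a gene was counted when it differed at least 2-fold from the mean of the guides, in one direction against each of them. The rule counted 84 genes as higher with sgRNA-FOXF1 (1.11% of the genes compared) and 33 as lower (0.437%). Against sgRNA-AP1-69 alone these counts were 65 and 37, and against sgRNA-AP1-71 alone 173 and 65, so the size of the set rests on which guide is used. As a yardstick, the 2 libraries aimed at the same enhancer site were 2-fold apart in 28 genes with sgRNA-AP1-71 above and in 14 with it below. Across all genes the SD of the difference from the mean of the guides was 0.36. For single pairs of libraries the SD was 0.34 against sgRNA-AP1-69, 0.43 against sgRNA-AP1-71 and 0.29 between the enhancer guides. At 1.5-fold the rule counted 431 genes as higher (5.7%) and 253 as lower (3.35%). limma, which takes its spread from the enhancer guides alone and assumes the lone sgRNA-FOXF1 library to vary like them, called 0 genes higher (0.0%) and 0 lower (0.0%) at an adjusted p of 0.05, with 720 genes at an unadjusted p under 0.05 and a smallest adjusted p of 0.452. The same limma model called 225 higher and 111 lower once the 253 genes with equal values in both guides were left out, so its outcome depends on those genes. All counts below are therefore descriptions of these libraries.

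**Figure D1:**
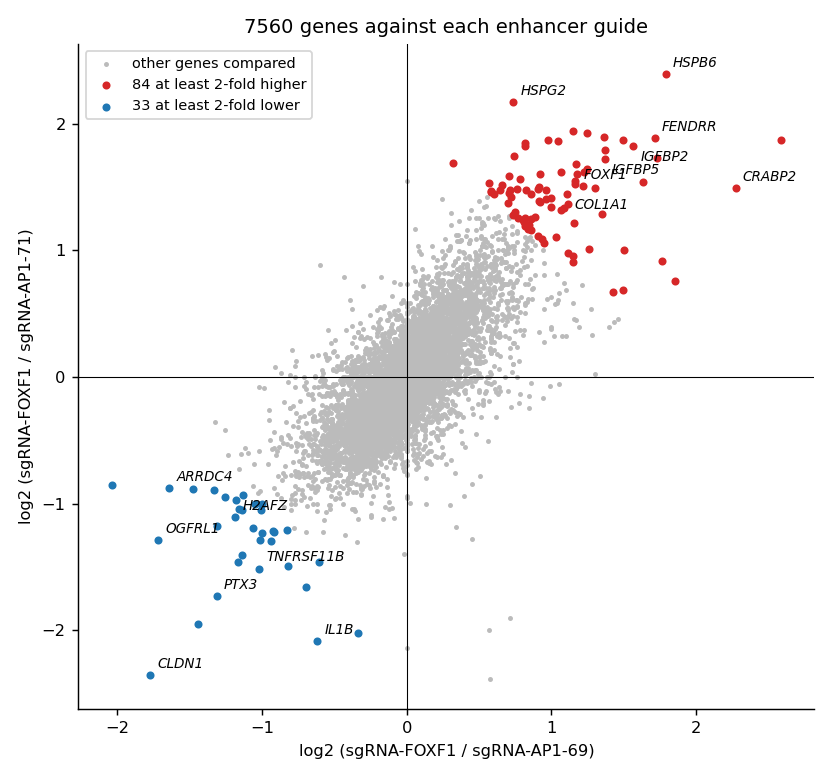
Each point is 1 of 7560 genes, with its log2 ratio of sgRNA-FOXF1 to sgRNA-AP1-69 on the x axis and to sgRNA-AP1-71 on the y axis. Red points are the 84 genes and blue points the 33 genes counted by the 2-fold rule, and the cloud runs along the diagonal from CLDN1 at the lower left to HSPB6 and CRABP2 at the upper right.

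Base composition moved with the difference. The difference had a Spearman correlation of 0.59 across genes (genes do not count as independent replicates) with the GC content of the transcript and of -0.02 with its length, for the 7548 genes with a GENCODE transcript model. The correlation with GC was 0.52 against sgRNA-AP1-69 and 0.58 against sgRNA-AP1-71. Between the guides themselves (sgRNA-AP1-71 minus sgRNA-AP1-69) it was -0.29, so all 3 libraries were spread along this axis. Ordered by GC content and cut into 5 bins of like size, the genes had a median difference of -0.22 in the lowest bin and 0.25 in the highest. These bins held 1 and 38 of the genes counted as higher and 11 and 3 of those counted as lower. The median GC content was 58.1% for the 84 higher genes, 45.3% for the 33 lower genes and 50.6% for all genes compared. A spline on GC content took up 32.2% of the variance of the difference. The part of base composition in the results that follow was not tested. Values corrected with that spline are given for the lists and for the genes that changed most with it. After the correction 52 genes were higher and 21 lower at 2-fold, of which 44 and 17 were among the 84 and 33. At 1.5-fold the corrected counts were 234 higher (3.1%) and 149 lower (1.97%) of 7548 genes. Corrected shares of lists below are to be read against these, and uncorrected ones against 5.7% and 3.35%. Among the genes described below, IGFBP6, LTBP3, LAMB3, PCOLCE, RARG and TOR4A were past 1.5-fold before the correction and under it after, with corrected differences of 0.54, 0.56, 0.54, 0.55, 0.44 and 0.57. The same held in the other direction for LDHA, MMP3, RPL14, RPL17 and TXNIP, at -0.48, -0.47, -0.54, -0.53 and -0.54.

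**Figure D2:**
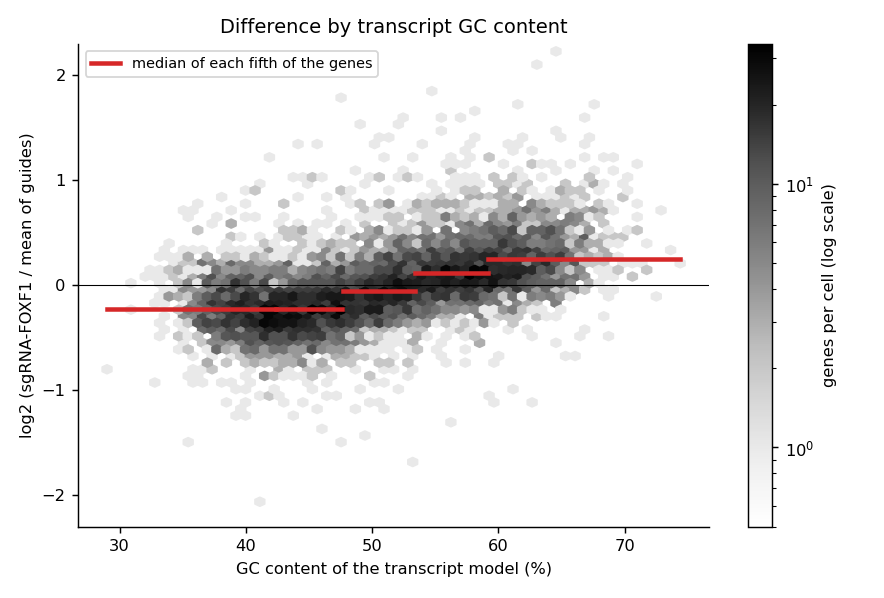
GC content of the transcript model (x axis, percent) against the log2 difference between sgRNA-FOXF1 and the mean of the enhancer guides (y axis), as the density of genes in hexagonal cells on a log grey scale. Red bars give the median of each of 5 bins of genes, -0.22 in the lowest GC bin and 0.25 in the highest.

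Genes were ranked by the smaller of their differences from the guides, among those with a mean of at least 5 RPKM. HSPB6 came first among the higher genes in this ranking. It encodes a small heat shock protein best known from muscle (chr19:36245467-36248980). HSPB6 reached 15.2 RPKM with sgRNA-FOXF1 against 4.4 with sgRNA-AP1-69 and 2.9 with sgRNA-AP1-71, or 4.26-fold above the mean of the guides (log2 difference 2.09, SD 0.43, n = 2 guides). The NT library was between, at 6.9 RPKM. The gene kept a log2 difference of 1.78 after GC correction.
CRABP2, a carrier that delivers retinoic acid to its nuclear receptors (chr1:156669398-156675608), was at 398.8 RPKM with sgRNA-FOXF1 against 82.6 with sgRNA-AP1-69 and 141.9 with sgRNA-AP1-71. It was 3.68-fold higher (log2 difference 1.88, SD 0.55, n = 2 guides), the guides themselves were well apart, and the NT library was lowest at 19 RPKM. G0S2, an inhibitor of fat breakdown, likewise had its lowest level in NT (8.7 RPKM) and stood at 81.3 RPKM against 22.5 and 48.1.
Members of the insulin-like growth factor (IGF) binding protein family, which hold IGFs in the extracellular space, were also prominent. IGFBP2 was at 14.5 RPKM with sgRNA-FOXF1 against 4.9 with sgRNA-AP1-69 and 4.1 with sgRNA-AP1-71 (log2 difference 1.69, SD 0.18, n = 2 guides). IGFBP5 was at 266.1 RPKM with sgRNA-FOXF1 against 103.1 with sgRNA-AP1-69 and 80.8 with sgRNA-AP1-71 (log2 difference 1.54, SD 0.25, n = 2 guides), and IGFBP6 at 248.3 RPKM with sgRNA-FOXF1 against 141.1 with sgRNA-AP1-69 and 124.9 with sgRNA-AP1-71 (log2 difference 0.90, SD 0.12, n = 2 guides). IGFBP3 went the other way, at 3 RPKM against 5.4 and 6.1 (log2 difference -0.94, SD 0.12, n = 2 guides). At 1.5-fold, 4 of 9 IGF system genes compared were higher and 1 was lower, which became 2 and 1 after GC correction. They had a median difference of 0.45 (0.39 after GC correction) against -0.03 over all genes.

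Of the other genes among the 15 highest, CST1, a secreted inhibitor of cysteine proteases, was at 12.1 RPKM with sgRNA-FOXF1 against 4.3 with sgRNA-AP1-69 and 3.3 with sgRNA-AP1-71, with NT at 10.9 RPKM. HTRA1, a secreted serine protease that cleaves matrix proteins and IGFBP5, was at 126.2 RPKM against 54.3 and 44.3, and the growth factor midkine (MDK) at 10.1 RPKM against 4.1 and 3.6. ANPEP, a surface aminopeptidase, was at 584.6 RPKM against 258.1 and 192.5, close to NT with sgRNA-FOXF1 (627.8 RPKM in NT). Both enhancer-guide libraries were well below these levels of ANPEP.
PTGS1, the constitutive cyclooxygenase, was at 78.1 RPKM against 33 and 25, and the hair keratin gene KRT34 at 57.5 RPKM against 22.3 and 16.6. CPT1A, which admits fatty acids to mitochondria, had 9.3 RPKM against 4.3 and 3.6, and the nucleolar GTP-binding protein gene GNL3L had 9.2 RPKM against 4.1 and 3.2. CPA4, a carboxypeptidase whose promoter is shown above, had 10 RPKM against 4.5 and 2.6. That sgRNA-FOXF1 is the highest of the 3 libraries in these genes follows from how they were chosen. Log2 differences over the 15 genes ran from 1.24 (CPT1A) to 2.09 (HSPB6), and 14 of them stayed at least 2-fold after GC correction. COL1A1 was the exception, with a corrected log2 difference of 0.99.

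CLDN1, a tight junction protein, came first among the lower genes in the same ranking (chr3:190023496-190040235). It was at 2.9 RPKM with sgRNA-FOXF1 against 9.9 with sgRNA-AP1-69 and 14.8 with sgRNA-AP1-71, which is 4.17-fold below the mean of the guides (log2 difference -2.06, SD 0.41, n = 2 guides), and NT stood at 24.8 RPKM. The secreted pattern recognition protein gene PTX3 was at 44.9 RPKM with sgRNA-FOXF1 against 111.4 with sgRNA-AP1-69 and 148.7 with sgRNA-AP1-71, or 2.87-fold lower (log2 difference -1.52, SD 0.29, n = 2 guides). Its NT level of 126.2 RPKM was within the range of the guides, so sgRNA-FOXF1 stood apart from the other 3 libraries. TNFRSF11B (osteoprotegerin), a secreted decoy receptor for RANKL, was at 80.2 RPKM with sgRNA-FOXF1 against 162.2 with sgRNA-AP1-69 and 228.6 with sgRNA-AP1-71 (log2 difference -1.26, SD 0.35, n = 2 guides).
OGFRL1, which is named for its similarity to the opioid growth factor receptor, had 2.5 RPKM against 8.2 and 6.1. WFDC21P, a transcribed pseudogene, had 89.8 RPKM against 201.5 and 247.2, and the protocadherin gene PCDH18 had 5.7 RPKM against 11.4 and 13.4. P3H2, a prolyl hydroxylase of basement membrane collagen, had 10.8 RPKM against 21.8 and 26.3. In each of these sgRNA-FOXF1 was the lowest of the 4 libraries.
CHAC1, which degrades glutathione and is a target of ATF4, was at 49.7 RPKM against 99.6 and 102.8, and its difference was larger after GC correction (-1.03 before and -1.30 after). PMAIP1, the pro-apoptotic NOXA of the p53 response, was at 15 RPKM against 30.2 and 28, and DDIT4L, a stress-induced inhibitor of mTOR, at 8.4 RPKM against 19 and 16.5. ETS2, a transcription factor activated by ERK, was at 10 RPKM against 21.9 and 19.1.
H2AFZ, which encodes the histone variant H2A.Z, was at 123.9 RPKM with sgRNA-FOXF1 against 281.4 with sgRNA-AP1-69 and 266.1 with sgRNA-AP1-71, with a narrow gap between the guides (log2 difference -1.14, SD 0.06, n = 2 guides). Reads shared with near-identical copies of histone genes cannot be followed in these values. The remaining genes were LURAP1L, at 5.3 RPKM against 10.8 and 10, the metallothionein gene MT1L and the mitochondrial gene MT-ND6. Of the 15 lowest genes, 8 stayed at least 2-fold lower after GC correction.

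**Figure D3:**
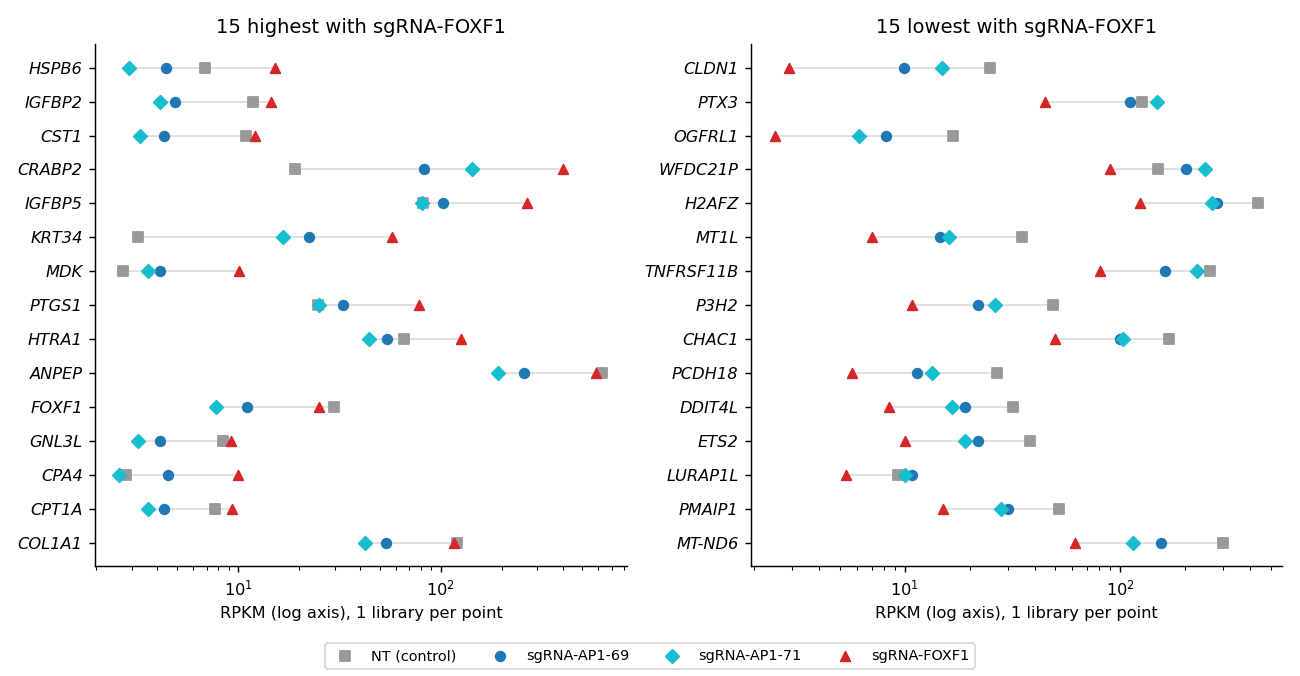
RPKM on a log axis for the 15 highest (left) and 15 lowest (right) genes whose mean reached 5 RPKM, ranked by the smaller of their differences from the guides. Each symbol is 1 library, and the red triangles (sgRNA-FOXF1) lie beyond the blue circles and cyan diamonds (the enhancer guides) in every row, while the grey squares (NT) fall on either side.

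The control library shows on which side the libraries differed, although the comparison does not use it. Among the 84 higher genes, NT was at or above the sgRNA-FOXF1 level in 31, between the groups but nearer sgRNA-FOXF1 in 15, nearer the guides in 16, and at or below the mean of the guides in 22. FOXF1, ANPEP and COL1A1 are of the first kind and CRABP2, KRT34 and MDK of the last. Among the 33 lower genes, NT was at or below the sgRNA-FOXF1 level in 0, between but nearer sgRNA-FOXF1 in 2, nearer the guides in 10, and at or above the mean of the guides in 21. CLDN1, H2AFZ and OGFRL1 are among the 21. Over all 5797 genes with one sign, NT was at or beyond sgRNA-FOXF1 in 32.8% and at or beyond the guides in 42.1%. The higher genes thus held both kinds, whereas in most of the lower genes NT was nearer the guides than sgRNA-FOXF1. The counted genes were chosen for a sgRNA-FOXF1 level far from the guides, and NT had no part in that choice. The place of NT is therefore a description only, and the NT library has no replicate either.

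Extracellular matrix genes were mostly higher with sgRNA-FOXF1. Collagens and glycoproteins form the fibrous matrix, and laminins, nidogens, perlecan and type IV collagen form the basement membrane. Of 51 matrix and basement membrane genes compared, 39 were higher with sgRNA-FOXF1 against each guide, 5 were lower against each guide and 7 lay between the guides. After GC correction 41 were above 0 and 10 below. Over all genes compared, 2722 were higher and 3075 lower against each guide, and 5.7% were at least 1.5-fold higher. With sgRNA-FOXF1 the median log2 difference from NT was -0.62 for collagens, -0.60 for basement membrane and -0.43 for matrix glycoproteins. For the mean of the guides these medians were -0.98, -0.91 and -1.09. The list medians were thus below the control with sgRNA-FOXF1 too, and further below it with the guides. The study reports weaker matrix induction after targeting either FOXF1 or the enhancer.
COL1A1 encodes the main chain of the commonest collagen, and its level was 115.6 RPKM with sgRNA-FOXF1 against 53.7 with sgRNA-AP1-69 and 42.5 with sgRNA-AP1-71 (log2 difference 1.27, SD 0.24, n = 2 guides), with 120.6 in NT. Its partner chain COL1A2 was at 292.3 RPKM with sgRNA-FOXF1 against 189.4 with sgRNA-AP1-69 and 167.1 with sgRNA-AP1-71 (log2 difference 0.72, SD 0.13, n = 2 guides). For both chains sgRNA-FOXF1 was near the NT level (287.0 RPKM for COL1A2) and both guides were below it. Over 16 collagens the median difference was 0.47, with 3 past 1.5-fold upward and 0 downward (2 and 0 after GC correction), and it came to 0.15 after GC correction (median GC content 59.6%). The list therefore moved toward the middle of all genes with that correction. COL5A2 and COL11A1 were lower against each guide, with differences of -0.36 and -0.55.
Among 20 matrix glycoproteins the median was 0.54, with 9 at least 1.5-fold higher and 0 lower. After GC correction the median was 0.47 and the counts 6 and 0. Fibulin 2 (FBLN2), which binds elastic fibres and basement membranes, was at 137.7 RPKM with sgRNA-FOXF1 against 74.6 with sgRNA-AP1-69 and 57.5 with sgRNA-AP1-71 (log2 difference 1.07, SD 0.27, n = 2 guides). Fibronectin (FN1), the main adhesive glycoprotein of the fibroblast matrix, was at 71.6 RPKM with sgRNA-FOXF1 against 53.9 with sgRNA-AP1-69 and 33.1 with sgRNA-AP1-71 (log2 difference 0.76, SD 0.50, n = 2 guides), and NT was at 151.4 RPKM. Here sgRNA-FOXF1 stood above both guides and below the control. MFAP4, LTBP3 and THBS3 had differences of 1.06, 1.0 and 0.86. THBS1, a matricellular protein that activates TGF-beta, was the member lower against each guide, at 45.3 RPKM against 67 and 64.
For 15 basement membrane genes the median was 0.46 (0.40 after GC correction), with 7 at least 1.5-fold higher and 1 lower (5 and 1 after it). Perlecan (HSPG2) was at 4.5 RPKM against 2.7 and 1.0, and since sgRNA-AP1-71 was at the floor its difference of 1.45 is a lower bound. Agrin (AGRN) was at 13.7 RPKM against 8.4 and 5, and the laminin chains LAMA4 and LAMB3 had differences of 1.0 and 0.77. COL4A1, a chain of the type IV collagen network, went the other way, at 12 RPKM with sgRNA-FOXF1 against 21.7 with sgRNA-AP1-69 and 17.2 with sgRNA-AP1-71 (log2 difference -0.69, SD 0.24, n = 2 guides).
Biglycan (BGN), decorin (DCN) and lumican (LUM), small proteoglycans that organise collagen fibrils, were all higher, by 1.01, 0.81 and 0.69, and these values did not fall as a group with GC correction (0.74, 0.97 and 0.81). DCN was near the floor, at 3.4 RPKM against 1.4 and 2.7, and at the floor in NT. Its difference was 1.28 against sgRNA-AP1-69 but 0.33 against sgRNA-AP1-71.

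**Figure D4:**
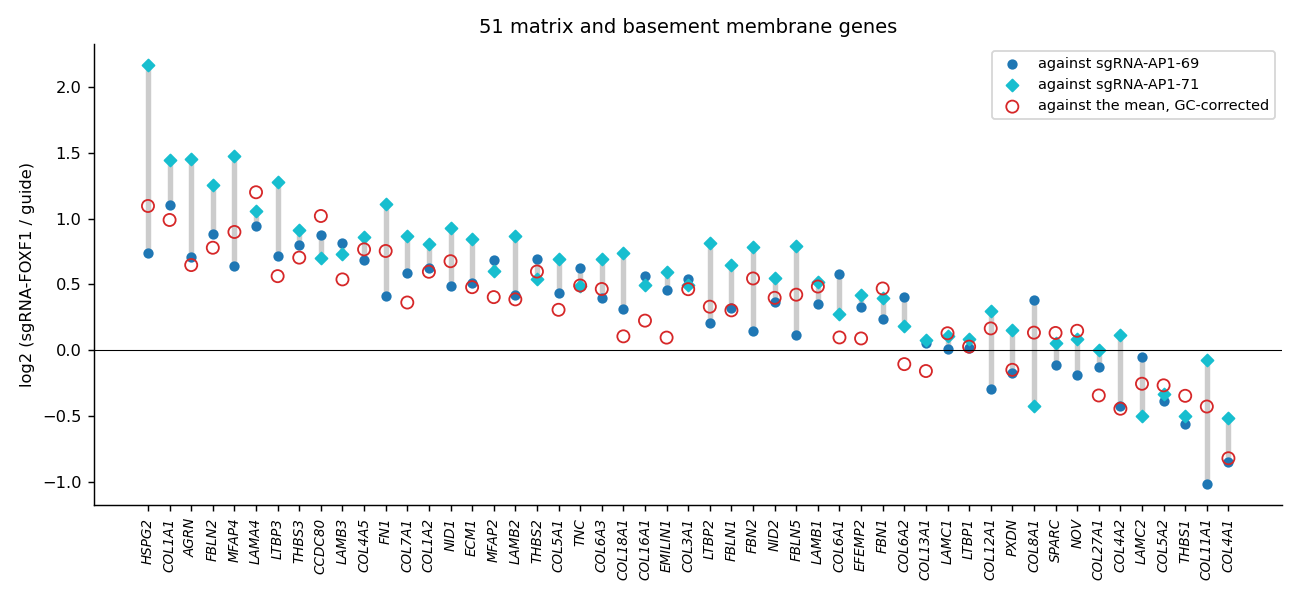
Log2 ratio of sgRNA-FOXF1 to each enhancer guide (blue circles for sgRNA-AP1-69, cyan diamonds for sgRNA-AP1-71) for 51 matrix and basement membrane genes, ordered by their mean, with the GC-corrected difference as open red circles. In 39 genes circle and diamond are both above 0, and COL4A1 is at the right end.

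Enzymes that modify and crosslink collagen showed the same direction. At 1.5-fold, 8 of 20 compared were higher and 0 lower, which became 4 and 0 after GC correction. They had a median of 0.54 that came to 0.40 after GC correction. LOXL1, a lysyl oxidase that crosslinks elastin and collagen, was at 148.9 RPKM with sgRNA-FOXF1 against 82.9 with sgRNA-AP1-69 and 64.8 with sgRNA-AP1-71 (log2 difference 1.02, SD 0.25, n = 2 guides). FKBP10, a collagen chaperone of the endoplasmic reticulum, was at 230.1 RPKM against 136.5 and 124.2, P3H1 at 24.2 RPKM against 15.3 and 11.4 and the procollagen protease enhancer PCOLCE at 63 RPKM against 38.8 and 31.9. PLOD2, which hydroxylates collagen lysines, was the one member lower against each guide (-0.57).
Matrix proteases and their inhibitors had a median of 0.44 over 19 genes (0.36 after GC correction), with 5 at least 1.5-fold higher and 2 lower (3 and 1 after it). TIMP1, an inhibitor of matrix metalloproteinases, was at 123.2 RPKM with sgRNA-FOXF1 against 68.8 with sgRNA-AP1-69 and 54.7 with sgRNA-AP1-71 (log2 difference 1.01, SD 0.23, n = 2 guides). The metalloproteinase gene MMP3 was at 34.2 RPKM against 59.5 and 50 (difference -0.67). Among 10 integrins, the receptors for this matrix, 0 were at least 1.5-fold higher and 2 lower (1 and 2 after GC correction), although their median was 0.26. The 2 lower ones were ITGA2 at 8.6 RPKM against 19.2 and 14.2 and ITGA8 at 1.9 RPKM against 3.3 and 3.7.
Lysosomal genes had a median of 0.36 over 35 genes (0.33 after GC correction), with 27 higher and 4 lower against each guide and 7 and 1 past 1.5-fold. After GC correction 2 were past 1.5-fold upward and 0 downward, against 3.1% and 1.97% of all genes. The cathepsin gene CTSF was at 8.8 RPKM against 5.2 and 4.2, and the sulfatase gene ARSA at 8.5 RPKM against 5.2 and 4.2.

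**Figure D5:**
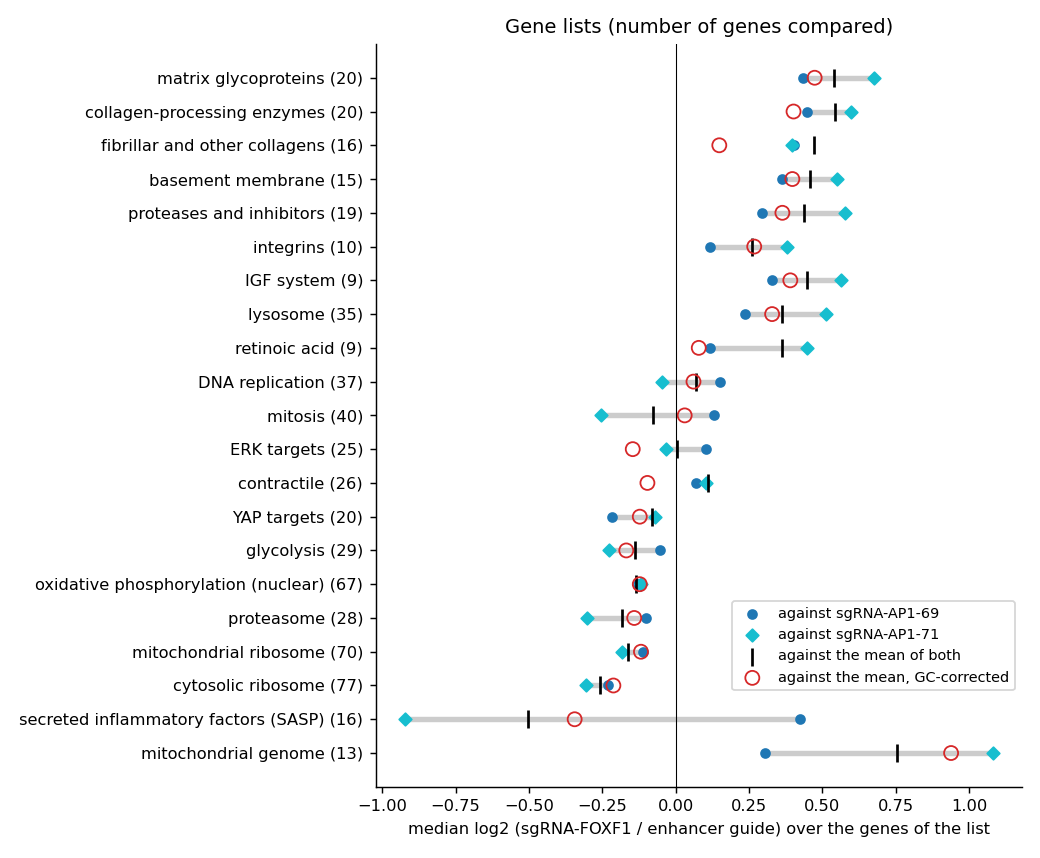
Median log2 difference of the genes of each list, against sgRNA-AP1-69 (blue circles), sgRNA-AP1-71 (cyan diamonds) and the mean of both (black ticks), with the GC-corrected median as open red circles and the number of genes compared in brackets. Matrix, IGF system and lysosome lists lie to the right, ribosome and proteasome lists slightly to the left, and the SASP list has a guide on each side of 0.

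Nuclear genes for ribosomes and for energy metabolism were lower by small amounts. For 77 cytosolic ribosomal proteins the median was -0.26 (-0.21 after GC correction), with 68 lower and 2 higher against each guide. Of them 3 passed 1.5-fold (1 after GC correction), the largest difference being that of RPS12, at 758.9 RPKM with sgRNA-FOXF1 against 1229.5 with sgRNA-AP1-69 and 1775.3 with sgRNA-AP1-71. RPL14 and RPL17 had differences of -0.76 and -0.75. Measured from NT instead, the list median was 0.25 with sgRNA-FOXF1 and 0.51 for the mean of the guides, both above the control. A count of 3 in 77 is near the 3.35% of all genes that were at least 1.5-fold lower. The median was -0.16 for 70 proteins of the mitochondrial ribosome, -0.18 for 28 of the proteasome and -0.14 for 67 nuclear genes of oxidative phosphorylation. After GC correction these medians were -0.12, -0.14 and -0.12. Correction for GC and length together left -0.06 for the mitochondrial ribosome and -0.05 for oxidative phosphorylation. The uncorrected median over all genes was -0.03.
In a list for glycolysis and the control of glucose uptake the median was -0.14 over 29 genes. At 1.5-fold 0 were higher and 4 lower, and 0 and 4 after GC correction, in part other genes. LDHA, which makes lactate, was at 175.8 RPKM against 227.8 and 361.4, and the glucose transporter gene SLC2A1 at 32.9 RPKM against 53.3 and 45.7. The other members among the 4 before correction were TXNIP and ARRDC4, glucose-responsive arrestins that restrain glucose uptake and are not enzymes of glycolysis. TXNIP was at 26.9 RPKM against 45.6 and 46.1 and ARRDC4 at 3.6 RPKM against 11.2 and 6.6.
The medians of cell-cycle genes had no common direction against both enhancer guides. Over 37 DNA replication genes the median was 0.07, positive against sgRNA-AP1-69 (0.15) and negative against sgRNA-AP1-71 (-0.05), and 40 mitotic genes gave 0.13 and -0.26. Against each guide, 16 replication genes were higher and 4 lower, and 12 mitotic genes were higher and 7 lower. After GC correction the medians of these lists were 0.06 and 0.03. At 1.5-fold, the uncorrected counts were 2 higher and 0 lower for each of these lists. CDK1, the kinase that drives entry into mitosis, was at 3.5 RPKM against 2.1 and 2.4, and the forkhead factor gene FOXM1, a regulator of mitotic genes, at 9.9 RPKM against 5.9 and 7.7. BUB3, a component of the spindle checkpoint, was lower, at 6.6 RPKM against 8.7 and 9.9.
For the genes that the study prints from its own gene-set analysis, which were chosen on these samples and are no independent evidence, the medians were -0.11 over 18 cell-cycle, -0.21 over 23 ribosomal and 0.45 over 19 extracellular matrix genes. The cell-cycle median was 0.11 against sgRNA-AP1-69, -0.23 against sgRNA-AP1-71 and 0.06 after GC correction, so it had no stable sign. The matrix median came to 0.30 after GC correction, and that group held 12 genes higher and 2 lower against each guide.

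RAS pathway readouts were mixed. Of 25 targets and feedback regulators of ERK, 3 were at least 1.5-fold higher and 3 lower (2 and 2 after GC correction), around a median of 0.01 that became -0.15 after GC correction. DUSP6, a phosphatase that dampens ERK, was at 33.7 RPKM with sgRNA-FOXF1 against 54.2 with sgRNA-AP1-69 and 68.2 with sgRNA-AP1-71 (log2 difference -0.85, SD 0.23, n = 2 guides). The ERK-induced EGF receptor ligand gene EREG was at 7.2 RPKM against 10.7 and 15.7. FOSL1, the AP-1 subunit FRA1 and likewise an ERK target, was in contrast at 84.8 RPKM with sgRNA-FOXF1 against 47.7 with sgRNA-AP1-69 and 46.2 with sgRNA-AP1-71 (log2 difference 0.85, SD 0.03, n = 2 guides). Over 8 AP-1 subunit and related genes the median was 0.11, and it reversed sign to -0.04 with GC correction.
Inflammatory SASP factors depended on the guide. Their median over 16 genes was 0.42 against sgRNA-AP1-69 and -0.92 against sgRNA-AP1-71, and the median between the guides was 0.94. Of the 16 genes, 3 were higher and 4 lower against each guide. At 1.5-fold 2 were higher and 4 lower, and 0 and 4 after GC correction. Differences from the mean of the guides were below 0 in 12 genes after the correction (median -0.34). IL1B, an upstream cytokine of the SASP, was at 73.7 RPKM with sgRNA-FOXF1 against 113.2 with sgRNA-AP1-69 and 311.8 with sgRNA-AP1-71, with 114.5 in NT. The neutrophil attractant gene CXCL8, chosen after its values were seen, was at 67.3 RPKM against 45.2 and 350.2, so it lay between the guides. No single direction against both enhancer guides can be given for these genes.
Other groups held few members past 1.5-fold. Of 9 retinoic acid genes 3 were higher and 0 lower (2 and 0 after GC correction), and apart from CRABP2 these were RARRES3 (0.81) and the receptor gene RARG (0.69). RARRES3 was at a low level, 4.5 RPKM against 2.0 and 3.3, with differences of 1.17 and 0.45. The retinoic acid median was 0.36 but 0.08 after GC correction. Of 3 metallothioneins, which bind zinc and copper, MT1L was at 7 RPKM against 14.6 and 16 and MT1E at 16 RPKM against 34.6 and 23.6, whereas MT2A lay between the guides at 98.3 RPKM against 99.3 and 87.7. Reads of these near-identical genes may be split among them. Of 23 interferon-response genes 2 were higher and 2 lower (2 and 3 after GC correction). Of 26 contractile genes 3 were higher and 2 lower, but 0 and 1 after the correction, which turned their median from 0.11 to -0.10.

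Transcripts of the mitochondrial genome, a list included as a check of RNA quality, differed between these libraries. Their median difference was 0.75 over 13 transcripts, with 0.31 against sgRNA-AP1-69 and 1.08 against sgRNA-AP1-71, and the summed level was 109385.7 RPKM against 97321.9 and 83065.3. MT-ATP6 was at 11475.6 RPKM against 6517.0 and 3237.6 and MT-ND5 at 829.4 RPKM against 559.0 and 287.0. MT-CO1 and MT-CO2, the highest ranks of each library, had equal values throughout because quantile normalization gives each rank the same value. MT-ND6, which is encoded on the other strand than the remaining 12, was lower, at 62 RPKM against 155.6 and 114.8. The labels and the study's methods name different library kits, so whether its reads were counted by strand is uncertain, and without strand they cannot be told apart from reads of the opposite strand. The part of these transcripts in the other results was not tested.
Fibroblast markers as a group were present in every library, though not each marker in each library. Of 14 such markers 13 were compared, their summed level was 6586.0 RPKM against 6593.0 and 6611.7, and FAP was at the floor in all libraries. DCN was at the floor in NT (1.0 RPKM). The summed level is set by the most abundant members. The median difference of the 13 was 0.55 (0.46 after GC correction), with 6 at least 1.5-fold higher and 0 lower, and COL1A1, COL1A2, FN1 and DCN are both on this list and on the matrix lists. EPCAM and CDH1 of 10 epithelial markers, PECAM1 and CDH5 of 9 endothelial markers and PTPRC of 10 immune markers are not among the genes listed. The ones compared were KRT8 and KRT18, TIE1 (3.3 RPKM against 1.2 and 2.4) and CD14 (6 RPKM against 7.9 and 8.5). KRT8 and KRT18 summed to 137.7 RPKM against 144.1 and 83.6, so their sum did not separate sgRNA-FOXF1 from both guides. KRT8 alone was slightly higher against each guide, at 10.2 RPKM against 8.6 and 7.6. Of 7 smooth muscle markers only SMTN was compared, at 23.2 RPKM against 21.1 and 19.9.

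The promoters of the counted genes were searched for a forkhead core (TGTTTAC, or GTAAACA on the other strand) and for the AP-1 motif (TGACTCA, or TGAGTCA on the other strand). A RefSeq promoter was at hand for 60 of the 84 higher genes, 22 of the 33 lower genes and 5872 of all 7560. A forkhead core was in 3 of the 60 (5.0%), in 1 of the 22 (4.55%) and in 2.04% of all. The AP-1 motif was in 4 of the 60 (6.67%), in 1 of the 22 (4.55%) and in 2.96% of all. FENDRR, PCAT6 and TNRC18 were the higher genes with a forkhead core, and CPA4, C3AR1, SLC6A17 and TOR4A those with an AP-1 motif. KRTAP1-5 among the lower genes had the forkhead core and ARRDC4 the AP-1 motif. With counts this small the shares are descriptions only, and a match in these letters is not a binding site. FOXF1 and COL1A1 have no entry in the promoter table.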

How the data were processed

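Poly(A) RNA from 4 cultures was sequenced, 1 library each. Per the labels and the study's methods, the authors (submitters' processing notes) aligned reads to hg19 with TopHat2, counted them per gene with HTSeq, and deposited RPKM values that were quantile-normalized over all libraries, to 1 decimal with a floor of 1. The sources used here give no tool versions. Labels and methods name different RNA and library kits. The authors' 3 columns of log2 ratios to NT were not used. All columns matched a sample.

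Differences were taken on log2 RPKM without a pseudocount. Genes named are FOXF1, HRAS, the locus list, the 15 highest and 15 lowest genes by the smaller difference against a guide at a mean of at least 5 RPKM, and up to 4 members per list; any others were chosen after their values were seen. Members and lists were chosen with earlier results of these data known. GC content and length come from GENCODE v44 transcripts on GRCh37. GC correction used a cubic spline with 5 knots for each guide's difference. limma 3.58.1 (R 4.3.3) was fitted with a mean-variance trend, 1 residual degree of freedom and Benjamini-Hochberg adjustment. Scripts in Python 3.11.15 were tested on simulated data. With 1 library per guide, any p-value measures only the spread between the enhancer guides.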

Additional observations from a re-analysis of the deposited data

Results flagged for a closer look

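For 56 of 188 named genes both enhancer guides lay on one side of the NT library and sgRNA-FOXF1 on the other. The opposite directions were not tested, since each target has too few libraries. Such a position of NT was also common over all 5797 genes with one sign. There NT lay between sgRNA-FOXF1 and the mean of the guides, nearer sgRNA-FOXF1 in 701 genes and nearer the guides in 753. These counts use the mean of the guides rather than each guide, so they are a rough background only. The named genes include the 15 highest and 15 lowest, chosen for large differences. The 56 genes are therefore not shown to exceed the background. Of the 56 genes, 22 appear above. Both guides were below NT and sgRNA-FOXF1 above it for 14 of them, with differences from the mean of the guides of 2.09 (HSPB6), 1.80 (FENDRR), 1.69 (IGFBP2), 1.68 (CST1), 1.36 (HTRA1), 1.34 (GNL3L), 1.24 (CPT1A), 1.07 (FBLN2), 0.91 (CTSF), 0.87 (P3H1), 0.86 (THBS3), 0.84 (PCOLCE), 0.82 (FKBP10) and 0.72 (COL1A2). HSPB6 spanned the widest range, with 6.9 RPKM in NT, 4.4 and 2.9 with the guides and 15.2 with sgRNA-FOXF1. The sgRNA-FOXF1 level of IGFBP2 was within 1.5-fold of NT (14.5 against 11.9 RPKM), as were those of all the others among the 14 except HSPB6, HTRA1 and THBS3. Both guides were above NT and sgRNA-FOXF1 below it for 8 genes, with differences of -1.31 (WFDC21P), -1.18 (KRTAP1-5), -0.97 (LURAP1L), -0.96 (RPS12), -0.76 (RPL14), -0.75 (RPL17), -0.71 (LDHA) and -0.49 (BUB3). RPS12, RPL14 and RPL17 did not stand for their list in this. Over 77 cytosolic ribosomal proteins the median log2 difference from NT was 0.25 with sgRNA-FOXF1 and 0.51 for the mean of the guides. WFDC21P was at 150.1 RPKM in NT, 201.5 and 247.2 with the guides and 89.8 with sgRNA-FOXF1.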

How the results depend on the processing

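The counts of 84 higher and 33 lower genes were within 1.5 times under median centring, renewed quantile normalization, length correction, all genes above the floor and no sign condition. They were 44 and 15 with a pseudocount of 1, 52 and 21 after GC correction, 53 and 20 after GC and length correction, 43 and 19 at a mean of at least 5 RPKM, 34 and 17 at 2-fold against each guide, and 431 and 253 at 1.5-fold. With a guide left out they ranged from 65 to 173 higher and from 37 to 65 lower genes. limma called 0 higher and 0 lower genes in its other fits, including all 4 libraries and GC-corrected values, but 225 and 111 without genes equal in both guides. A limma fit without a guide has no residual degrees of freedom and was not run. No paired analysis was possible because the groups compared share fewer than 2 replicate numbers.

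Of 188 named genes, GINS2 and SMTN took the opposite sign under some setting. Of 45 lists with at least 3 genes, 25 kept one sign under all 10 settings, matrix, IGF system, lysosome and ribosome lists among them. A kept sign does not mean a kept size. With GC and length correction the collagen median went from 0.47 to 0.09. The same correction took retinoic acid genes from 0.36 to 0.06 and the mitochondrial ribosome from -0.16 to -0.06. Matrix glycoproteins (0.44) and basement membrane (0.37) changed less. The median turned sign with GC correction for AP-1 subunit, contractile and mitosis lists among others, and for SASP factors it was 0.42 against sgRNA-AP1-69 alone. Depth is unknown, and differences of genes near the floor are understated.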
